A study of Mus musculus with 28 samples.

Results

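The genes described here are Slc2a1, Slc2a3 and Slc16a1, the main carriers of glucose and lactate in the mouse preimplantation embryo. They were taken by name, with earlier results of these data known. They are 3 of the 15582 genes measured in blastocysts and of the 16745 genes measured in morulae. RNA was read from 27 single whole CD1 embryos, 14 blastocysts and 13 morulae, in a study whose title ties chromatin folding and a change in metabolism between these stages to CTCF, the zinc finger protein that holds insulators and stops cohesin. The blastocysts comprised 3 embryos labelled MZ_KO, 4 labelled M_KO, 4 labelled het and 3 labelled WT_flfl. The morulae comprised 6 embryos labelled MZKO, 4 labelled del and 3 labelled het. The sources give these codes without spelling out the alleles, the deleting Cre or the parents, and levels of Ctcf in each group are given below. MZ_KO and M_KO blastocysts share a title prefix, as do WT_flfl and het blastocysts, and del and het morulae. MZKO morulae carry a prefix of their own. Comparisons of MZ_KO or M_KO with WT_flfl or het, and of MZKO with del or het, are thus also comparisons of title prefixes.

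Glucose crosses cell membranes by facilitated diffusion through carriers of the SLC2 family. Slc2a1 encodes GLUT1, the widely used basal carrier, and Slc2a3 encodes GLUT3, a high-affinity carrier that in the mouse blastocyst lies on the apical face of the trophectoderm and takes up glucose from the maternal fluid. Slc16a1 encodes MCT1, which moves lactate and pyruvate together with a proton in either direction and needs the chaperone basigin to reach the membrane. Early cleavage embryos use pyruvate and lactate, and uptake of glucose rises as the blastocyst forms.

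All 3 are protein-coding genes on the GRCm38 build. Slc2a1 (ENSMUSG00000028645) spans chr4:119108711-119137983 on the plus strand, Slc2a3 (ENSMUSG00000003153) spans chr6:122727809-122801640 on the minus strand, and Slc16a1 (ENSMUSG00000032902) spans chr3:104638668-104658462 on the plus strand. Since strand is not kept by the kit, reads of the antisense genes Gm12867 and Gm12868 within Slc2a1 cannot be told apart from its own. Slc2a3 overlaps the processed pseudogene Gm4482, and Slc16a1 the intronic genes Gm43581 and Gm43585.

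All 3 genes were lower in MZ_KO than in WT_flfl and het blastocysts, as described below, and their promoters are shown where an entry was found. They are RefSeq sequences of the GRCm38.p6 build, 250 bases before to 50 after the start, and 2 of the 3 genes matched an entry (Slc2a1 and Slc16a1, not Slc2a3). Capitals mark every match, on either strand, of GGGCGG (the GC box bound by Sp factors) or of AGNNGGC (a stretch within the CTCF consensus).
Slc2a1, chr4:119108495-119108794, plus strand: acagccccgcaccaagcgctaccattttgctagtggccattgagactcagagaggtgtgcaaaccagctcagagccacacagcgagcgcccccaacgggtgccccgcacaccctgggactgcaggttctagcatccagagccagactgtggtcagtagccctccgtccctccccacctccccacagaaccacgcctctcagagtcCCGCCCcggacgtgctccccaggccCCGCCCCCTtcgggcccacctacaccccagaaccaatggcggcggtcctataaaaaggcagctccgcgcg
Slc16a1, chr3:104638414-104638713, plus strand: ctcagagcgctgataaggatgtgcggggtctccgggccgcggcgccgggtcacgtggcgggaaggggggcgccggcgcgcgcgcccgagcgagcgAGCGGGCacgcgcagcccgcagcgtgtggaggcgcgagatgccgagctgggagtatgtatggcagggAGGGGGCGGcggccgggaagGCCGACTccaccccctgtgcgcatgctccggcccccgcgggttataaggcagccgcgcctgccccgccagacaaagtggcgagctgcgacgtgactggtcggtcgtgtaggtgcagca
Both stretches are rich in G and C, at 65.3% for Slc2a1 and 73.7% for Slc16a1 against a median of 52.7% over the 32851 promoters of the table. They hold 18 and 42 CG pairs against a median of 7. GGGCGG matched 2 times in Slc2a1 and 1 time in Slc16a1, and 35.7% of all promoters hold it. AGNNGGC matched 1 time in Slc2a1 and 3 times in Slc16a1, but 59.8% of all promoters hold it, and in each gene 1 of its matches overlaps a GC box. CACGTG, the E-box bound by Myc and its relatives, matched 1 time in Slc16a1, 0 times in Slc2a1 and in 7.15% of promoters. ACGTG, the core of the hypoxia response element, matched 1 time in Slc2a1, 3 times in Slc16a1 (2 of them inside the E-box) and in 19.6% of promoters. GGAATG, a TEAD site, matched in neither, and 14.7% of promoters hold it.

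Read totals lay between 7377302 and 27883060 in blastocysts and between 12136606 and 20414013 in morulae, apart from del 6 with 1635553. Levels are in counts per 1000000 reads (CPM), and each stage's table was scaled on its own. Ctcf itself was at 95.1 ± 6.02 CPM in WT_flfl blastocysts (SD, n = 3), 67.5 ± 9.73 in het, 69.5 ± 15.6 in M_KO and 3.62 ± 0.660 in MZ_KO. In morulae it was at 38.6 ± 14.6 CPM in het, 2.30 ± 2.68 in del and 4.33 ± 3.60 in MZKO. The MZ_KO blastocysts and the del and MZKO morulae thus held little Ctcf, while M_KO blastocysts overlapped het. Some embryos stood apart: haemoglobin genes took 3.35% of reads in WT_flfl 1, 3.12% in blastocyst het 6 and 1.67% in morula het 1, against 0.000731% to 1.17% in the others. Morula het 1 and MZKO 1 also held the highest summed level of 4 oviduct markers, 1278 and 1932 CPM. Results below are given without these embryos where that changes a call.

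In blastocysts Slc2a3 ranked 327th of 15582 genes by mean CPM, Slc16a1 1045th and Slc2a1 3857th. In morulae they ranked 1839th, 2374th and 4902nd of 16745. Per kilobase of exon, over all blastocysts, Slc2a3 averaged 65.2 CPM, Slc16a1 46.3 and Slc2a1 16.1, and in morulae Slc16a1 averaged 20.8, Slc2a3 16.2 and Slc2a1 9.91. This morula order is over all groups: in het morulae Slc2a3 was at 21.4 and Slc16a1 at 9.76 CPM per kilobase. Het embryos, whose label is the only one written alike at both stages, held 23.9 ± 16.4 CPM of Slc2a1 as morulae and 65.7 ± 33.6 as blastocysts. For Slc2a3 these levels were 155 ± 34.9 and 527 ± 104, and for Slc16a1 43.2 ± 4.45 and 246 ± 61.6. The stages were sequenced in separate batches and cannot be told apart from them, so no test of these levels was made.

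**Figure D1:**
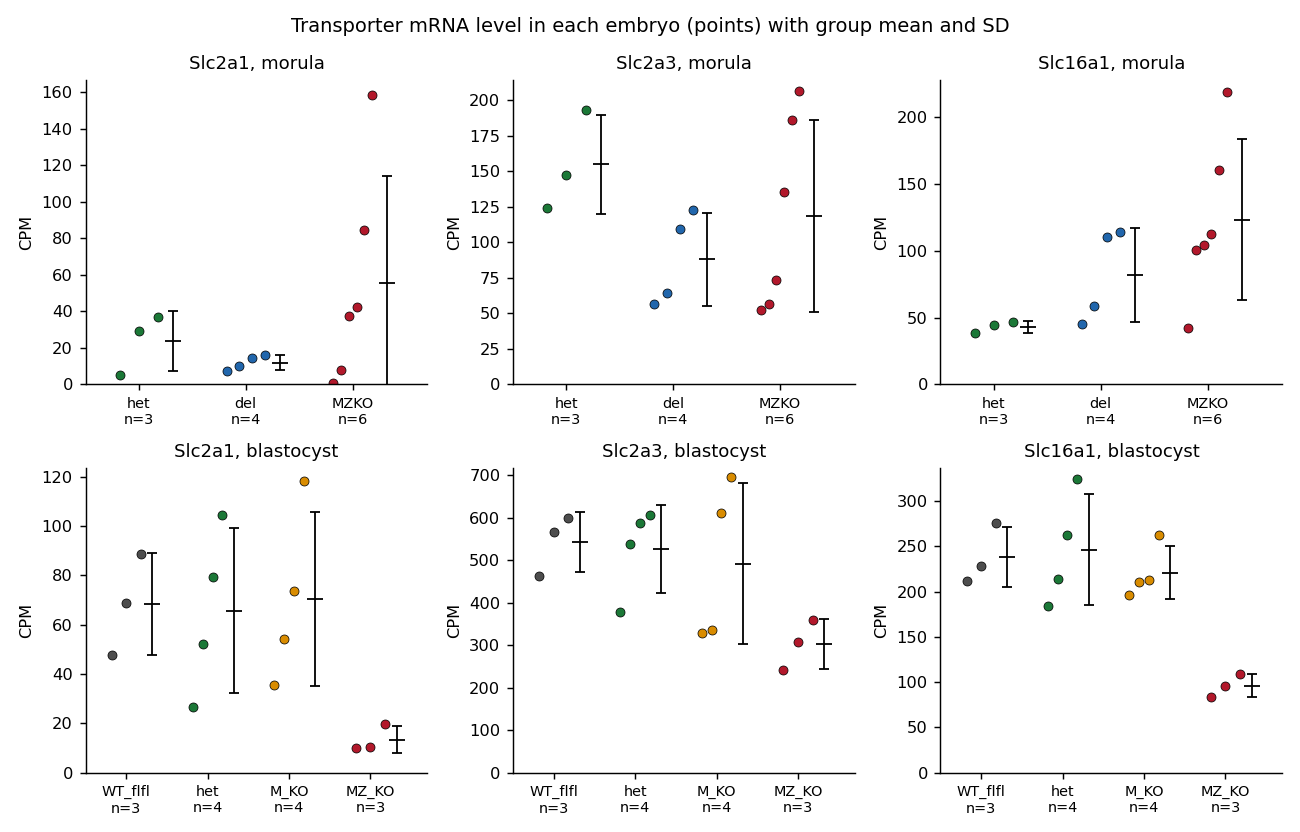
CPM of Slc2a1, Slc2a3 and Slc16a1 (columns) in each morula (upper row) and blastocyst (lower row), by group; each point is 1 embryo, and bars give the group mean and SD (the lower bar of MZKO Slc2a1 is cut at 0). The 3 MZ_KO blastocysts lie below every other blastocyst for Slc2a1 (9.79 to 19.5 CPM) and Slc16a1 (83.3 to 109 CPM), and for Slc2a3 (242 to 360 CPM) they overlap M_KO.

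Slc2a1 was the transporter whose mean fell furthest in MZ_KO blastocysts, although its ratio to Slc16a1 overlapped the other groups, as given below. Slc2a1 measured 9.79, 10.4 and 19.5 CPM in MZ_KO 2, 6 and 7, each on at least 227 reads. The WT_flfl embryos held 47.6, 68.8 and 88.7 CPM, the het embryos 26.7, 52.3, 79.2 and 104 CPM, and the M_KO embryos 35.7, 54.1, 73.7 and 118 CPM. Every MZ_KO embryo was below every embryo of the other groups, whose ranges lay across each other. The MZ_KO mean was 19.4% of WT_flfl, 20.2% of het and 18.8% of M_KO. On the log2(CPM + 1) scale, which understates changes of low genes, limma gave -2.30 ± 0.47 (SE) against WT_flfl with an adjusted p of 0.00412. Against het it gave -2.13 ± 0.44 (adjusted p = 0.00342) and against M_KO -2.26 ± 0.44 (adjusted p = 0.00332). These contrasts share the MZ_KO embryos and are not independent.

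Slc16a1 fell in MZ_KO blastocysts against all 3 other groups. MZ_KO 2, 6 and 7 held 83.3, 109 and 95.5 CPM. WT_flfl embryos held 212, 228 and 276 CPM, het embryos 184, 214, 262 and 325 CPM, and M_KO embryos 196, 211, 213 and 263 CPM. The MZ_KO embryos were below every other blastocyst, and their mean was 40.2% of WT_flfl, 39.0% of het and 43.5% of M_KO. The log2 fold change was -1.30 ± 0.20 against WT_flfl (adjusted p = 5.07e-04), -1.33 ± 0.19 against het (adjusted p = 2.07e-04) and -1.19 ± 0.19 against M_KO (adjusted p = 6.10e-04).

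Slc2a3, the most abundant of the 3 in blastocysts, fell by less, to 55.8% of the WT_flfl mean and 57.5% of the het mean. MZ_KO 2, 6 and 7 held 242, 308 and 360 CPM, against 463, 566 and 599 CPM in WT_flfl and 378, 537, 587 and 607 CPM in het. The M_KO embryos fell into a lower pair at 328 and 335 CPM and a higher pair at 611 and 695 CPM, and the lower pair overlapped MZ_KO. The log2 fold change was -0.85 ± 0.27 against WT_flfl (adjusted p = 0.0446) and -0.79 ± 0.25 against het (adjusted p = 0.0374), both with no overlap of embryos. Against M_KO it was -0.63 ± 0.25 (adjusted p = 0.114), which did not pass. The calls of Slc2a3 lay close to the threshold. Leaving out 1 embryo at a time gave adjusted p from 0.0259 to 0.163 against WT_flfl, lost without MZ_KO 2 or 6, without any WT_flfl embryo, or without het 3, 5 or 6. Against het the range was 0.0191 to 0.154, lost without MZ_KO 2 or 6 or het 3, 5 or 6. Leaving out both embryos rich in haemoglobin (WT_flfl 1 and het 6) gave 0.121 and 0.108, testing all genes without the filter gave 0.0721 and 0.0596, and limma-voom against het gave 0.0513.

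Thus 3 of the 3 transporters were lower in MZ_KO than in WT_flfl and than in het, and 2 of the 3 than in M_KO. For comparison, 13.2% of the 9585 genes tested were called against WT_flfl (8.36% lower, 4.84% higher), 17.9% against het (10.8% lower, 7.02% higher) and 11.8% against M_KO (8.09% lower, 3.74% higher). The median log2 fold change of all genes was -0.05, -0.06 and -0.03. Since the 3 genes were chosen with earlier results of these data known, their count cannot be tested against these shares. Of these comparisons, only that with M_KO was between embryos that share a title prefix.

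Markers of the embryo's own lineages moved in the same embryos. Of all genes 8.36%, 10.8% and 8.09% were lower in MZ_KO than in WT_flfl, het and M_KO, and 4.84%, 7.02% and 3.74% higher. Of 10 trophectoderm markers 9 were tested, and Eomes, Fgfr2 and Krt8 were lower in MZ_KO than in each other group, with 0 higher. The summed trophectoderm level was 4453 to 6118 CPM in MZ_KO, 7762 to 8372 in WT_flfl, 5627 to 8417 in het and 6209 to 10049 in M_KO. Of the primitive endoderm markers 4 of 6 were in the table, and Gata4 and Sox17 were lower in MZ_KO than in each other group. The 4 summed to 189 to 233 CPM in MZ_KO, 180 to 290 in WT_flfl, 164 to 527 in het and 190 to 313 in M_KO. The 8 epiblast and inner cell mass markers summed to 876 to 1074 CPM in MZ_KO, 741 to 980 in WT_flfl, 731.5 to 931.5 in het and 1046 to 1089 in M_KO. Among 7 tested, Nanog was higher and Tdgf1 lower in MZ_KO than in each other group, and against het Pou5f1 was also higher and Fgf4 lower. Blood markers summed to 1638 to 7544 CPM in MZ_KO, 1018 to 34484 in WT_flfl, 27.0 to 31491 in het and 1261 to 3716 in M_KO. Of the granulosa markers only Inha was in the table, at 0 in WT_flfl. It reached at most 1.37 CPM in het, 7.17 in MZ_KO and 78.6 in M_KO. The part of these lineages and other cells in the transporter levels was not tested. In whole embryos, fewer cells of a type and less RNA per cell cannot be told apart.

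M_KO, het and WT_flfl blastocysts did not differ detectably in any of the 3 genes. The log2 fold changes among these groups lay between -0.22 and 0.13, with adjusted p of at least 0.912. The 95% intervals were widest for Slc2a1, from -1.10 to 0.75 in het and, at the same width, from -0.97 to 0.88 in M_KO, both against WT_flfl. For Slc16a1 the intervals were narrower, from -0.51 to 0.29 for M_KO against WT_flfl. The background was 0% of genes called by limma in each of these comparisons (M_KO against WT_flfl, M_KO against het, het against WT_flfl). At an unadjusted p under 0.05 limma counted 494 genes for M_KO against WT_flfl, 638 for M_KO against het and 187 for het against WT_flfl, and limma-voom called 0 in each. Ordered by mean, Slc2a1 ran M_KO, WT_flfl, het, MZ_KO, Slc2a3 ran WT_flfl, het, M_KO, MZ_KO, and Slc16a1 ran het, WT_flfl, M_KO, MZ_KO. Only the last step was beyond the spread for Slc2a1 and Slc16a1, and no single step was for Slc2a3.

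In morulae the Slc16a1 means were higher, not lower, in del and MZKO than in het, but neither difference passed over all genes. The het embryos held 38.2, 44.6 and 46.7 CPM, the del embryos 45.3, 58.4, 110 and 114 CPM, and the 6 MZKO embryos ranged from 42.5 to 219 CPM with a median of 109. In 5 of 6 MZKO embryos and 3 of 4 del embryos the level was above every het embryo. The log2 difference from het was 1.34 ± 0.42 for MZKO (95% interval 0.45 to 2.22, adjusted p = 0.247 in limma) and 0.81 ± 0.46 for del (adjusted p = 0.999). The del value of 45.3 CPM belongs to the shallow del 6 and rests on 78 reads.

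Slc2a3 did not pass in any morula comparison. The het embryos held 125, 148 and 193 CPM, the del embryos 56.3, 64.6, 109 and 123 CPM, and the MZKO embryos 52.1 to 207 CPM with a median of 105. The del embryos all lay below the het embryos, while MZKO spanned both. Log2 differences from het were -0.86 ± 0.46 for del (adjusted p = 0.999) and -0.57 ± 0.43 for MZKO (adjusted p = 0.782).

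Slc2a1 varied most among morulae. It measured 5.43, 29.4 and 36.8 CPM in het, 7.16, 9.87, 14.6 and 16.2 CPM in del, and 1.02 to 159 CPM in MZKO with a median of 39.9. The lowest MZKO value (MZKO 3) rests on 13 reads, and the highest belongs to MZKO 1, the embryo with the highest oviduct markers; their part in it was not tested. The MZKO group thus spanned all other morulae, with an SD that was 106% of its mean. The log2 difference of MZKO from het was 0.49 ± 1.00 (adjusted p = 0.940), and it changed sign, to between -0.31 and 1.24, as single embryos were left out. None of the 3 genes was called in any morula comparison, where the background was 0.482% for MZKO against het, 0.181% for MZKO against del and 0.01% for del against het.

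MZ_KO blastocysts and MZKO morulae were both taken as MZ embryos, an assumption, since the sources do not say that these labels mean the same genotype. For Slc16a1 the difference between MZ and het embryos had opposite signs at the 2 stages, and this was tested. The blastocyst log2 fold change minus the morula one passed over all genes (-2.66 ± 0.49, 95% interval -3.67 to -1.65, adjusted p = 0.00440 over 8572 genes, of which 1.61% were called). Leaving out 1 embryo at a time kept it between -2.93 and -2.47 with adjusted p of at most 0.0158, and without MZKO 1 and morula het 1 together it was -2.59 (adjusted p = 0.00528). For Slc2a1 the same difference was -2.61 ± 1.23 (adjusted p = 0.263) and for Slc2a3 -0.22 ± 0.53 (adjusted p = 0.867), and neither passed. Stage and sequencing batch cannot be told apart here. At both stages the MZ and het embryos also carry different title prefixes, so label and prefix cannot be told apart either.

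**Figure D2:**
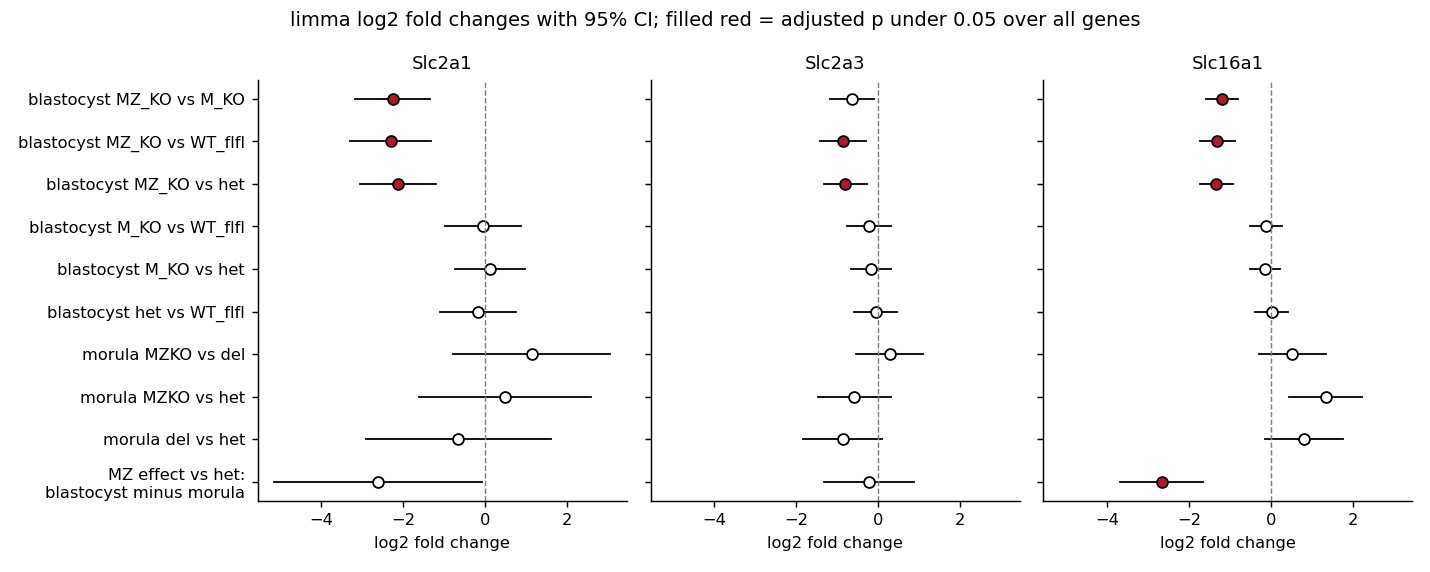
Log2 fold change of each transporter (panels) in the 9 comparisons within a stage and in the difference between stages; points are limma estimates on the log2(CPM + 1) scale, lines are 95% intervals, and filled points have an adjusted p under 0.05. Filled points are the MZ_KO blastocyst comparisons, except Slc2a3 against M_KO, and the stage difference of Slc16a1 at -2.66.

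Ratios between members within an embryo were taken as differences of log2(CPM + 1). The log2 ratio of Slc16a1 to Slc2a3 was -2.09, -1.68 and -1.64 in the het morulae. In MZKO it was -0.36, -0.29, -0.27, 0.24, 0.44 and 0.88, and in del -1.06, -0.31, 0.06 and 0.76. No MZKO or del morula reached down to the het morulae. Means were 0.11 ± 0.50 (SD, n = 6) in MZKO, -0.13 ± 0.76 (n = 4) in del and -1.80 ± 0.25 (n = 3) in het. The exact two-sided permutation p was 0.0119 for MZKO against het, the smallest these group sizes allow, and 0.0571 for del against het. Adjusted over the 27 ratios and comparisons they were 0.321 and 0.441, so neither passed. In blastocysts the ratio was -1.64 ± 0.23 in MZ_KO (n = 3) and -1.18 ± 0.21 in WT_flfl (n = 3), with no overlap, at the smallest exact permutation p that 3 against 3 allows, 0.1 (adjusted 0.441). It was -1.10 ± 0.42 in het and -1.08 ± 0.70 in M_KO (n = 4 each), and both overlapped MZ_KO (exact permutation p = 0.114 and 0.314).

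**Figure D3:**
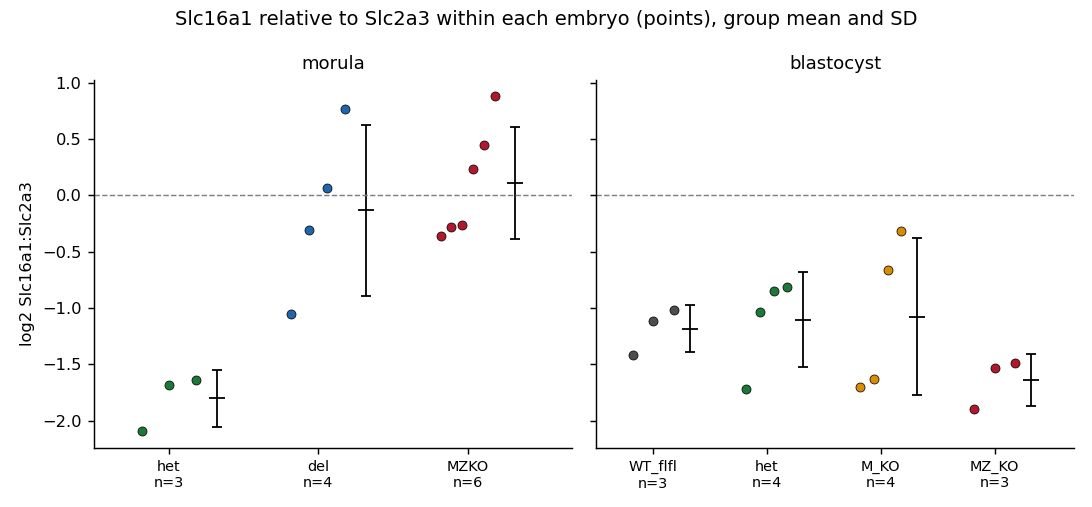
Log2 ratio of Slc16a1 to Slc2a3 in each morula (left) and blastocyst (right), by group; each point is 1 embryo, bars give mean and SD, and the dashed line marks equal CPM. The 3 het morulae lie between -2.09 and -1.64, below all del and MZKO morulae.

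The ratio of Slc2a1 to Slc2a3 was -3.01 ± 0.26 in WT_flfl and -4.46 ± 0.31 in MZ_KO blastocysts, without overlap (exact permutation p = 0.1, the smallest possible, n = 3 each; adjusted 0.441), which did not pass. In het it was -3.13 ± 0.97 and in M_KO -2.84 ± 0.95, and both overlapped MZ_KO. The ratio of Slc16a1 to Slc2a1 was 2.82 ± 0.53 in MZ_KO blastocysts and overlapped WT_flfl, het and M_KO. Exact permutation p was 0.2, 0.343 and 0.171 (adjusted 0.6, 0.771 and 0.579), so none passed.

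Few other carriers of these families were expressed. Of 20 hexose transporters, 11 had a row in the blastocyst table and 5 were tested, and of 16 monocarboxylate transporters 8 had a row and 3 were tested. In MZ_KO against WT_flfl the hexose list's median log2 fold change was -0.85, the value of Slc2a3 itself, against -0.05 over all genes. The list held 0 higher and 2 lower, where 4.84% of all genes were higher and 8.36% lower. Both lower genes are the members Slc2a1 and Slc2a3 described above, so against WT_flfl the list adds no call of its own. Against het, where 10.8% of all genes were lower, Slc2a8, an intracellular sugar carrier, joined them. Slc2a8 was at 68.1 ± 5.01 CPM against 113 ± 13.3 (log2 -0.72 ± 0.24, adjusted p = 0.0484 in limma). Of the summed CPM per kilobase of the hexose list, Slc2a3 held 38.1% ± 3.27 in MZ_KO, 38.0% ± 4.32 in WT_flfl and 36.3% ± 15.3 in M_KO. Slc2a1 held 3.37% ± 0.859 in MZ_KO and 9.73% ± 2.06 in WT_flfl. The sum includes Slc5a11, an inositol carrier, at 29.3% ± 3.48 in MZ_KO and 30.0% ± 3.94 in WT_flfl.

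Among the monocarboxylate transporters Slc16a1 fell and Slc16a13 rose in MZ_KO blastocysts. Slc16a13, which encodes MCT13, held 61.3, 113 and 123 CPM in MZ_KO 2, 6 and 7 and at most 51.7 CPM in any other blastocyst. It rose against WT_flfl by a log2 fold change of 1.34 ± 0.30 (adjusted p = 0.00713), against het by 1.49 ± 0.28 (adjusted p = 0.00187) and against M_KO by 1.09 ± 0.28 (adjusted p = 0.0179). Of the summed CPM per kilobase of the list, Slc16a1 held 73.2% ± 3.38 in WT_flfl, 72.5% ± 11.3 in het and 69.4% ± 1.33 in M_KO but 33.7% ± 4.70 in MZ_KO. Slc16a13 held 57.2% ± 8.20 in MZ_KO and 19.5% ± 2.35 in WT_flfl. Slc16a3, the lactate exporter MCT4 of strongly glycolytic cells, stayed at or below 7.35 CPM in every blastocyst and was not tested. Slc16a7 had no row at either stage.

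Levels of the other carriers are given for both stages. Slc16a6 and Slc5a11 are named here after their values were seen. Slc16a6, a member of the monocarboxylate family, averaged 198 CPM in morulae and 7.97 CPM in blastocysts, and Slc16a1 took 25.5% of the family's summed mean CPM per kilobase in morulae and 64.4% in blastocysts. Slc2a8 averaged 120 CPM in morulae and 102 in blastocysts, and Slc5a11, a sodium-coupled carrier of inositol, 46.8 and 147. These levels stand side by side with no test, since each table was scaled on its own. Within morulae no gene of either list was called in any comparison.

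**Figure D4:**
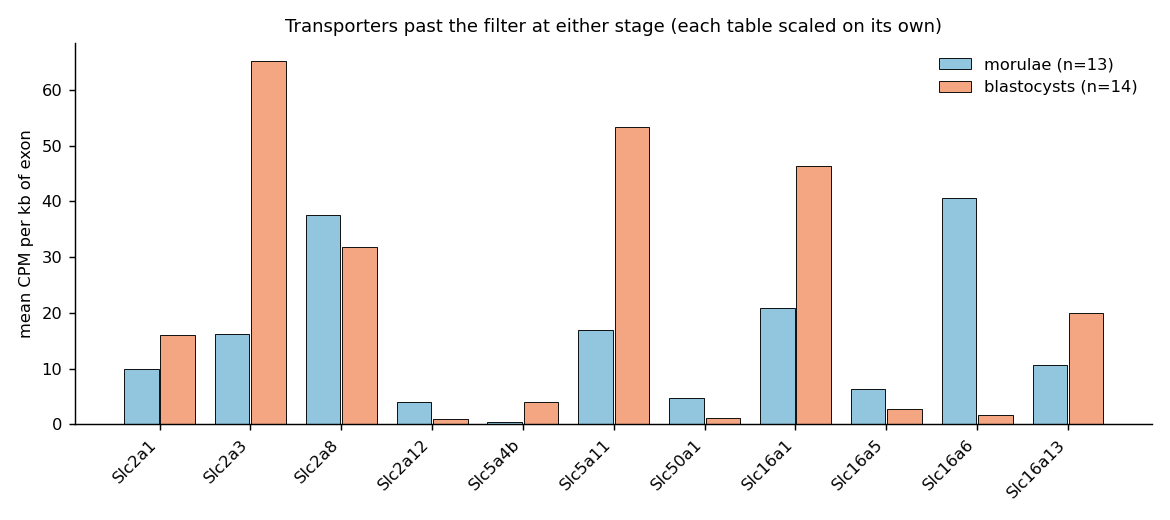
Mean CPM per kilobase of exon of every hexose or monocarboxylate transporter that passed the filter at either stage, over 13 morulae (blue) and 14 blastocysts (orange). Slc2a3 is the tallest bar in blastocysts at 65.2 and Slc16a6 the tallest in morulae at 40.5.

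The chaperones of MCT1 were not called. Bsg, which encodes basigin, was at 682 ± 36.2 CPM in MZ_KO, 601 ± 50.3 in WT_flfl and 539 ± 23.5 in het blastocysts (log2 0.18, 95% interval -0.08 to 0.45, adjusted p = 0.358 against WT_flfl; 0.34, interval 0.09 to 0.59, adjusted p = 0.0546 against het). For Emb the log2 fold change was -0.27 against WT_flfl (interval -1.09 to 0.55, adjusted p = 0.694). All 3 partners, Bsg, Emb and Nptn, were tested and 0 passed in any MZ_KO comparison.

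Downstream of the carriers, 9 of 19 genes of the first steps and fate of glucose and lactate were tested in blastocysts. Against WT_flfl 2 were higher and 1 lower in MZ_KO, where 4.84% of all genes were higher and 8.36% lower, with a median log2 fold change of 0.01 against -0.05 over all genes. Mpc1, a subunit of the carrier that brings pyruvate into mitochondria, was at 200 ± 14.5 CPM against 129 ± 25.3 (log2 0.64 ± 0.20, adjusted p = 0.0388). Pdhb, a subunit of pyruvate dehydrogenase, was at 589 ± 67.7 against 427 ± 24.1 CPM (0.46 ± 0.13, adjusted p = 0.0279). Pkm, the pyruvate kinase of the last glycolytic step, was at 430 ± 56.9 against 736 ± 74.1 CPM (-0.78 ± 0.17, adjusted p = 0.00616). Against M_KO Mpc1 and Pkm were called and Pdhb was not (0.13 ± 0.12, adjusted p = 0.521). Against het Ldha, a lactate dehydrogenase subunit with many processed pseudogenes, was also lower, at 10.1 ± 7.45 against 59.4 ± 35.4 CPM (-2.49 ± 0.74, adjusted p = 0.0287), but it was not called against WT_flfl (-0.90, adjusted p = 0.491) or M_KO (-0.70, adjusted p = 0.585).

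Of 23 regulators of glucose uptake 18 were tested, and against WT_flfl and against het 0 were higher and the same 5 genes were lower in MZ_KO, where 8.36% and 10.8% of all genes were lower. These were Myc and Mycn, growth-promoting transcription factors that raise transporter and glycolytic genes in other cells, Hif1a, the oxygen-regulated factor, Mlxip, a glucose-sensing factor, and Akt1, a kinase of the insulin pathway. Myc was at 9.16 ± 5.52 CPM in MZ_KO and 41.2 ± 20.5 in WT_flfl (log2 -2.16 ± 0.60, adjusted p = 0.0264), and Mycn at 6.06 ± 5.27 and 42.1 ± 5.88 CPM (-3.20 ± 0.65, adjusted p = 0.00436). Hif1a was at 10.7 ± 4.76 CPM in MZ_KO, 23.5 ± 4.43 in WT_flfl and 44.0 ± 9.25 in het, a log2 difference of -1.12 ± 0.34 from WT_flfl (adjusted p = 0.0375). Mlxip was at 4.61 ± 3.49 CPM against 16.7 ± 6.74 (-1.74 ± 0.54, adjusted p = 0.0433). Akt1 was at 100.2 ± 25.4 against 202 ± 56.2 CPM (-0.99 ± 0.24, adjusted p = 0.0120). The list's median was -0.27 against -0.05 over all genes. The same 5 were lower than in M_KO. Against M_KO alone Prkaa2, a catalytic subunit of AMP-activated kinase named after its value was seen, was higher, at 30.0 ± 3.70 against a mean of 4.37 CPM (2.73 ± 0.65, adjusted p = 0.0120). Txnip, an arrestin that lowers glucose uptake, did not pass in any MZ_KO comparison, with adjusted p of at least 0.159.

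The genes around Slc2a3 went the opposite way. Of 23 genes annotated with a start within 250 kb of the outermost start of Slc2a3, 5 were tested in blastocysts, and all 5 were higher in MZ_KO than in WT_flfl and than in het, while Slc2a3 was lower. Of all genes 4.84% and 7.02% were higher in these comparisons. Counted from the start of its full-length transcript, Nanog, a pluripotency factor, starts 35.3 kb downstream, Dppa3, which protects methylation of maternal DNA, 116 kb and Gdf3, a TGF-beta ligand, 133 kb downstream. Foxj2, a forkhead factor, starts 77.2 kb and Necap1, an endocytic adaptor, 132 kb upstream.

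Foxj2 was at 28.7 ± 9.44 CPM in MZ_KO, 5.94 ± 2.07 in WT_flfl and 6.68 ± 3.17 in het (log2 2.09 ± 0.52, adjusted p = 0.0136 against WT_flfl). Dppa3 was at 3813 ± 540 CPM against 1792 ± 118 (1.08 ± 0.15, adjusted p = 2.15e-04), and Nanog at 321 ± 100.1 against 152 ± 14.3 CPM (1.04 ± 0.25, adjusted p = 0.0128). Necap1 was at 212 ± 41.4 against 109 ± 20.2 CPM (0.94 ± 0.22, adjusted p = 0.0102), and Gdf3 at 122 ± 28.9 against 61.6 ± 15.3 CPM (0.97 ± 0.28, adjusted p = 0.0313). For all 5 the MZ_KO embryos lay above every WT_flfl and every het embryo. The share of all genes that separated in this way was not counted. Against M_KO, where 3.74% of all genes were higher, 4 of the 5 were called higher. Gdf3 was not (0.45 ± 0.26, adjusted p = 0.295 in limma), and for Nanog and Gdf3 the MZ_KO embryos overlapped M_KO. Neighbouring genes are not independent of each other. In the other blastocyst comparisons 0 of these 5 were called, as were 0% of all genes. In morulae Nanog, Gdf3, Necap1 and Dppa3 were tested and 0 called, and Foxj2 was not tested.

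Around the other 2 transporters nothing passed. Of 29 genes near Slc2a1 and 24 near Slc16a1, 5 each were tested in blastocysts and 0 were called in any MZ_KO comparison. Of all genes 13.2%, 17.9% and 11.8% were called against WT_flfl, het and M_KO. With 5 genes each, 0 calls cannot be told apart from these shares. The median log2 fold change against WT_flfl was 0.20 near Slc2a1 and -0.65 near Slc16a1.

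**Figure D5:**
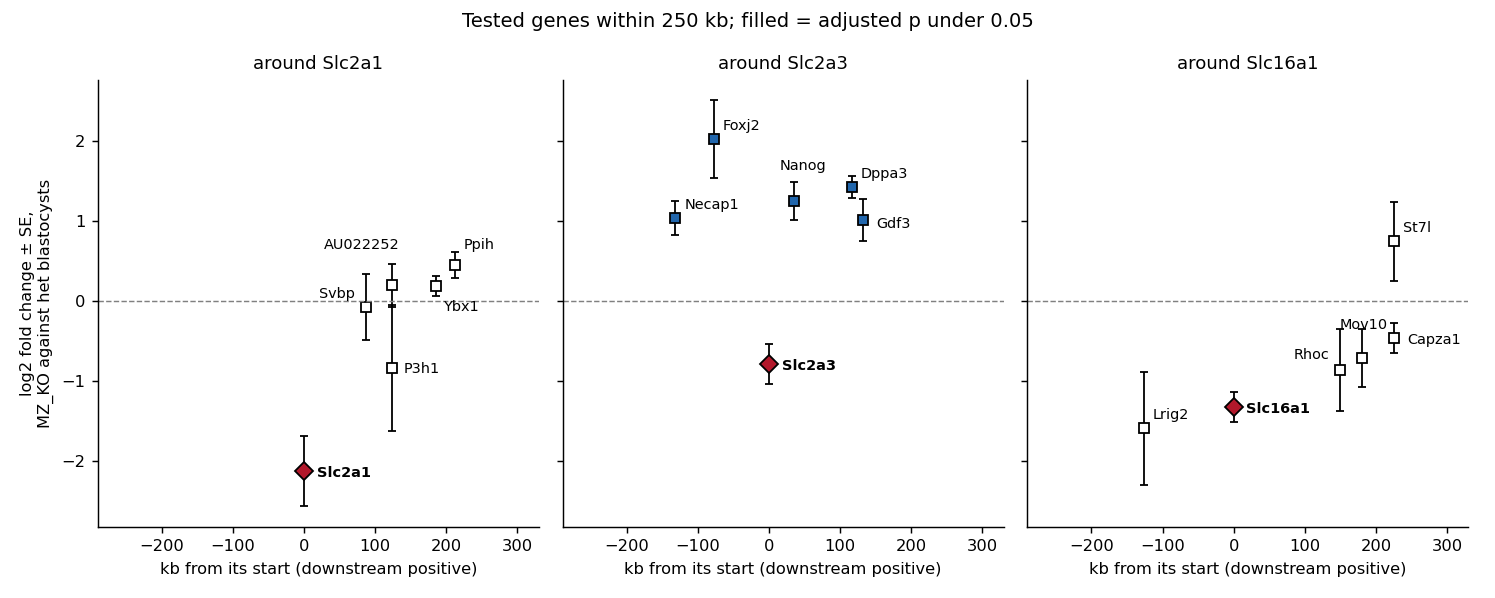
Log2 fold change (with SE) of MZ_KO against het blastocysts for the tested genes around each transporter, by distance in kb from the start of its full-length transcript, downstream positive; diamonds are the transporters and filled squares neighbours with an adjusted p under 0.05. All 5 squares around Slc2a3 lie above 0, from 1.01 (Gdf3) to 2.02 (Foxj2), with Slc2a3 at -0.79, and no square around the others is filled.

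The likeness of the 3 transporters over blastocysts changed once group means were taken off. Over the 14 blastocysts Pearson's r was 0.58 between Slc2a1 and Slc2a3, 0.67 between Slc2a1 and Slc16a1 and 0.63 between Slc2a3 and Slc16a1. Spearman's rho of the same pairs was 0.53, 0.24 and 0.32. After group means were taken off Pearson's r was 0.04, -0.55 and -0.02. By Pearson's r the gene most like Slc16a1 over the same embryos was Lcp1, an actin-bundling protein (r = 0.97, and 0.80 after group means). For Slc2a1 it was Pnp, a purine salvage enzyme (0.92 and 0.73). For Slc2a3 it was Kremen1, a Dickkopf receptor that inhibits Wnt signalling (0.91 and 0.90). Next came Mfge8 and Thrap3 for Slc2a1 (both r = 0.91), Usp6nl and Camsap2 for Slc2a3 (0.90 and 0.89), and Rnf166 and Acaa2 for Slc16a1 (0.95 and 0.94). By Spearman's rho Lcp1 ranked 9th, Pnp 42nd and Kremen1 2nd, and the others ranked from 3rd (Usp6nl) to 126th (Acaa2). Over the 13 morulae r with Slc2a1 was 0.17 for Pnp, -0.29 for Mfge8 and -0.28 for Thrap3. With Slc2a3 it was -0.0040 for Usp6nl and 0.22 for Camsap2, and with Slc16a1 it was 0.44 for Lcp1 and -0.36 for Acaa2. All points share their libraries and groups, and these values are a description of likeness only.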

How the data were processed

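Single mouse embryos (27, in 7 groups named by the labels) were profiled by RNA-seq of polyA RNA with a low-input SMART-Seq kit; 28 samples are labelled and the 1 without a column was not analysed here. Cutadapt 1.14, Bowtie2 2.2.9 and RSEM 1.3.1 and the GRCm38 (mm10) build are named in the submitters' processing notes. Both tables deposited by the authors hold log2 values, which are log2 CPM with an offset of 0.5 reads: all values came back as whole reads within 0.01 reads. A gene was tested where 3 or more embryos of its table reached 10 CPM (9585 genes in blastocysts, 9953 in morulae, 8572 in both). The test was limma 3.58.1 (R 4.3.3) on log2(CPM + 1), fitted jointly over the groups of each table, with a mean trend and Benjamini-Hochberg adjustment over all tested genes, called under 0.05. Rows naming no mouse gene (3 in blastocysts) held at most 0.0113% of reads and were left out. The design had foreseen linear normalized values, and the unit found led to this test. The steps were tested on simulated data.

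The labels do not say whether embryos shared a litter, so p-values measure the spread between these embryos. Single ratios were tested by exact two-sided permutation over embryos. Alternatives were limma-voom on the whole reads, no filter, other pseudocounts and scalings, fits of only the groups compared, a block and embryos left out. The members and lists were chosen with earlier results of these data known. Named genes were the members, Ctcf, genes of the transporter, partner, fate and regulator lists called in MZ_KO against WT_flfl or het, in morula MZKO or del against het or in the stage difference, Bsg, Emb, Slc16a3, Slc16a7 and Txnip, called neighbours within 250 kb, and the 3 genes most like each member.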

Additional observations from a re-analysis of the deposited data

Results flagged for a closer look

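The difference of Slc16a1 between stages was singled out because the test of the difference itself passed: the log2 fold change of MZ embryos against het was -1.33 in blastocysts and 1.34 in morulae, a difference of -2.66 (limma adjusted p = 0.00440). Stage and sequencing batch cannot be told apart, and at both stages the MZ and het embryos carry different title prefixes. That MZ_KO and MZKO mean the same genotype was assumed. In 24 group values examined for an embryo far from the others none was found, where chance picks about 1 in 20.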

How the results depend on the processing

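Of 693 alternatives on the transporters' log2 fold changes 641 kept direction and side of the threshold, 27 lost the call and 25 changed sign. The Slc2a1 and Slc16a1 calls in MZ_KO were lost only with embryo numbers as a replicate block. These numbers were not taken to pair the embryos: deviations of same-numbered MZKO and del embryos correlated at -0.12 to 0.14, and 2 of 4 correlated best with their own number; M_KO and het were at -0.14 and -0.12. Only morulae MZKO 1 and het 1, both high in oviduct markers, stood out, at 0.73. With the replicate block, values that lost the call were, for Slc16a1, -3.01 for the stage difference, -1.49 against M_KO, -1.50 against WT_flfl and -1.58 against het; for Slc2a1 -1.58, -1.81 and -1.60; and for Slc2a3 -1.06 against WT_flfl and -0.60 against het. Signs changed under it for Slc2a1 (M_KO against het -0.022, del against het 2.31) and Slc2a3 (stage difference 0.52, M_KO against het 0.027). The cause was not tested.

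Slc2a3 lost its call against WT_flfl and het with no filter (-0.85, -0.79), without WT_flfl 1 and het 6 (-0.81, -0.73), and with limma-voom against het (-0.76). Without those embryos, signs of uncalled values changed for Slc16a1 (M_KO against het 0.012, het against WT_flfl -0.20) and Slc2a1 (-0.24, 0.22). Leaving out 1 embryo at a time moved Slc2a3 between -0.98 and -0.70 against WT_flfl and between -0.94 and -0.64 against het.
It also turned uncalled values: Slc16a1 M_KO against het -0.26 to 0.012 and het against WT_flfl -0.12 to 0.15; Slc2a1 M_KO against WT_flfl -0.34 to 0.23, M_KO against het -0.24 to 0.41, het against WT_flfl -0.45 to 0.19 and MZKO against het -0.31 to 1.24; Slc2a3 M_KO against het -0.35 to 0.0093 and het against WT_flfl -0.17 to 0.094. Ratios moved likewise for Slc16a1 to Slc2a1 (M_KO against WT_flfl -0.33 to 0.28, M_KO against het -0.67 to 0.25, het against WT_flfl -0.31 to 0.60). For Slc16a1 to Slc2a3 the ranges were -0.15 to 0.31, -0.23 to 0.23, -0.037 to 0.28 and, for MZKO against del, -0.066 to 0.54. For Slc2a1 to Slc2a3 they were -0.054 to 0.64, -0.14 to 0.76, -0.42 to 0.31 and, for del against het, -0.76 to 0.71.

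Counts of genes called moved with the block to 48 (MZ_KO against WT_flfl), 110 (against het), 13 (against M_KO), 0 (stage), 1 (MZKO against het), 0 (del against het) and 2 (het against WT_flfl). Leaving out 1 embryo gave 783 to 1365, 1058 to 1792, 711 to 1182, 53 to 706, 29 to 90, 0 to 4 and 0 to 1. Without WT_flfl 1 and het 6 they were 787, 1011 and, for the stage difference, 61, and 1 for M_KO against WT_flfl. Limma-voom gave 218 for the stage difference, 24 for MZKO against het, 2 for MZKO against del and 0 for del against het; scaling by each embryo's own read total gave 228 and, for del against het, 2; fits of only the groups compared gave 65 for the stage difference; leaving out MZKO 1 and morula het 1, chosen after seeing the data, gave 750 and 4. Few embryos and, in morulae, 13 reads of Slc2a1 in MZKO 3 limit precision.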

Other observations

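Morula het 1 and MZKO 1, the embryos with the highest oviduct markers, also held the highest levels of several genes of glucose use. Ldha, a lactate dehydrogenase subunit, was at 375 and 296 CPM in them and at most 69.9 CPM in the other 11 morulae. Txnip, which lowers glucose uptake, was at 300.4 and 403 CPM against at most 52.3. Emb, a partner of MCT1, was at 129 and 212 CPM against at most 39.5, and Hif1a at 293 and 134 against at most 45.2. In the same embryos, het 1 and MZKO 1, Slc2a1 was at 29.4 and 159 CPM, Slc16a1 at 38.2 and 105, and Slc2a3 at 125 and 56.6. Of these transporter levels only that of Slc2a1 in MZKO 1 was the highest among the morulae. The genes were chosen after their values were seen, and the part of other cells in these levels was not tested.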
